A study of Mus musculus with 18 samples.

Results

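Retinoic acid is made, carried and broken down by a small set of proteins, and 9 of their genes were followed here through cultured mouse testes: Stra6, Lrat, Rdh10, Aldh1a1, Aldh1a2, Aldh1a3, Crabp1, Cyp26a1 and Cyp26b1. They were chosen by name, as the rows of the expression table whose NCBI gene number belongs to one of these symbols, and all 9 were found among 22657 genes. After busulfan, Crabp1 and Cyp26a1 were called lower between the groups without alginate oligosaccharide, where 13.8% of all genes tested were called. Crabp1, Cyp26a1, Aldh1a2 and Lrat were called lower when all 9 busulfan samples were set against the 9 others, where 38.1% were called. Crabp1 entered the test only through samples without busulfan, so a difference in it was built in. Aldh1a1, the most abundant of the 9, was not among the called genes in any comparison. No gene of the set passed the test for a change with alginate oligosaccharide.

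Testes came from ICR mice 2 weeks after the age of 3 weeks, when the busulfan donors had received a single dose of 40 µg per g body weight. Busulfan is an alkylating drug that kills spermatogonia. The testes were held for 48 h in DMEM/F12 medium with 10% serum and 0, 10 or 50 µg per mL of alginate oligosaccharide (AOS), a short-chain product of the seaweed polymer alginate. Testes of mice without busulfan gave the groups A0, A10 and A50, those of busulfan mice gave B0, BA10 and BA50, and each group had 3 samples. Age, strain, medium and time in culture were shared by all 6 groups. The unit was FPKM, fragments scaled to transcript length and to the sample's total, so that genes of different length share 1 scale. Several testes went into each treatment and the cultures were repeated, but the labels do not tie a sample to an animal, so the p-values measure the spread between these samples.

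Vitamin A circulates as retinol. Stra6 is a membrane receptor that takes retinol up from its serum carrier, and Lrat esterifies retinol for storage. Rdh10 oxidizes retinol to retinal, the 3 Aldh1a enzymes oxidize retinal to retinoic acid, Crabp1 binds retinoic acid in the cytoplasm, and the Cyp26 enzymes hydroxylate it for removal. In the testis, retinoic acid drives spermatogonia to differentiate and to enter meiosis, with Stra8 as its best known target. As background, Aldh1a1 protein is known from Sertoli cells, Aldh1a2 from spermatocytes, Crabp1 from spermatogonia and Cyp26b1 from peritubular myoid cells.

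All values come from whole pieces of tissue, so fewer cells of a type and less RNA per cell cannot be told apart. Summed FPKM ran from 463969.97 to 511274.08 over the 18 samples, and between 14291 and 15040 genes reached 1 FPKM. Replicate 3 of A10 stood apart. Its log2 values correlated with those of the other 2 A10 samples at 0.962 and 0.968, against 0.97 to 0.993 in every other pair within a group, and its summed Sertoli cell markers stood at 1082 FPKM against 2480 and 2799. That sample lay outside the range of the other 17 samples in 6 of the 9 genes. The 3 B0 samples carried markers of other tissue, with fat cell markers summing to 48.3 to 321.3 FPKM against 4.14 to 6.91 in A0, and duct epithelium markers to 113.8 to 281.2 against 49.7 to 75.7. Testis markers were present in every group, with Sox9 of Sertoli cells at 4.71 to 23.5 FPKM over all samples. Marker sums are weighted to the most abundant genes of each list.

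All 9 genes are protein coding. On GRCm38, the build of the files, RefSeq placed Aldh1a1 on chromosome 19 from 20492583 to 20643463 and Cyp26a1 on the same chromosome from 37697738 to 37701536. Chromosome 9 held Crabp1 (54764748 to 54773110), Stra6 (58063793 to 58154004) and Aldh1a2 (71215789 to 71296243). Rdh10 lay on chromosome 1 (16105882 to 16132550), Lrat on chromosome 3 (82892582 to 82903974), Cyp26b1 on chromosome 6 (84571414 to 84593908) and Aldh1a3 on chromosome 7 (66390892 to 66427477). The genes are not neighbours apart from Aldh1a1, which is followed by its near-identical copy Aldh1a7 (20692953 to 20727556).

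Retinoic acid acts through nuclear receptors that bind paired short elements, so the promoter windows were searched for them, from 250 bases before to 50 bases after each RefSeq start. Each element could read AGGTCA, which is the usual form, or AGTTCA as found in the Rarb promoter, or GGGTCA as a close variant, or GGTTCA as in Rarb again. A pair had to run in the same direction, 5 bases (DR5) or 2 bases (DR2) apart, on either strand. Windows were given for 7 of the 9 genes, and not for Aldh1a3 and Rdh10. A DR5 pair stood in the window of 1 of these 7, Cyp26a1, and in 32 of all 32851 windows (0.0974%). The 41 other retinoid pathway genes had windows for 34, of which only Rarb, a receptor gene and a textbook DR5 target, held one. Forms of the Rarb promoter were among those searched for, so its match was set in advance and is no outcome of the search. A DR2 pair was found in 88 windows (0.268%), none of a gene in either set. The 120 bases before the start are shown on the gene's strand for the DR5 gene of the set, for Rarb, and for Crabp1, which had the largest change and no such pair. Capitals mark the paired letters, and in Cyp26a1 they read on the other strand.
Cyp26a1, GRCm38.p6 chr19:37697688-37697807, plus strand: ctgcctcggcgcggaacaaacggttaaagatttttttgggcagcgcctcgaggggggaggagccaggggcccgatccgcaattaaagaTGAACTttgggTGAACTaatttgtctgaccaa
Rarb, GRCm38.p6 chr14:16575477-16575596, minus strand: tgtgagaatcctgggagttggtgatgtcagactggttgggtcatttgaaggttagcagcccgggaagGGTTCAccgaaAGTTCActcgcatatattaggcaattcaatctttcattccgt
Crabp1, GRCm38.p6 chr9:54764628-54764747, plus strand: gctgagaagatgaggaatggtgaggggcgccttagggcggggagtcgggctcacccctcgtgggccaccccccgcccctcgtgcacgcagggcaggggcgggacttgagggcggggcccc
The starts are those of the transcripts in the RefSeq promoter table, and for Cyp26a1 and Rarb they lie inside the span of the gene. The pair lay 32 to 16 bases before the start in Cyp26a1 and 53 to 37 bases before it in Rarb. A match of letters is a description of the window and not a bound site.

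The levels of the 9 genes differed widely. Aldh1a1 averaged 1062 ± 282.9 FPKM (SD, n = 18) and ranked between 17 and 31 among all genes by group mean. Aldh1a2 followed at 64.1 ± 13.1 FPKM, and Rdh10 at 16.2 ± 3.72 FPKM. Stra6 (5.79 ± 2.28), Aldh1a3 (5.29 ± 2.10) and Cyp26b1 (4.12 ± 1.29) were close to each other and their ranges overlapped, so their order is not resolved. Crabp1 averaged 3.74 ± 3.86, Cyp26a1 1.89 ± 1.15 and Lrat 1.28 ± 0.480 FPKM, the lowest mean of the 9.

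**Figure D1:**
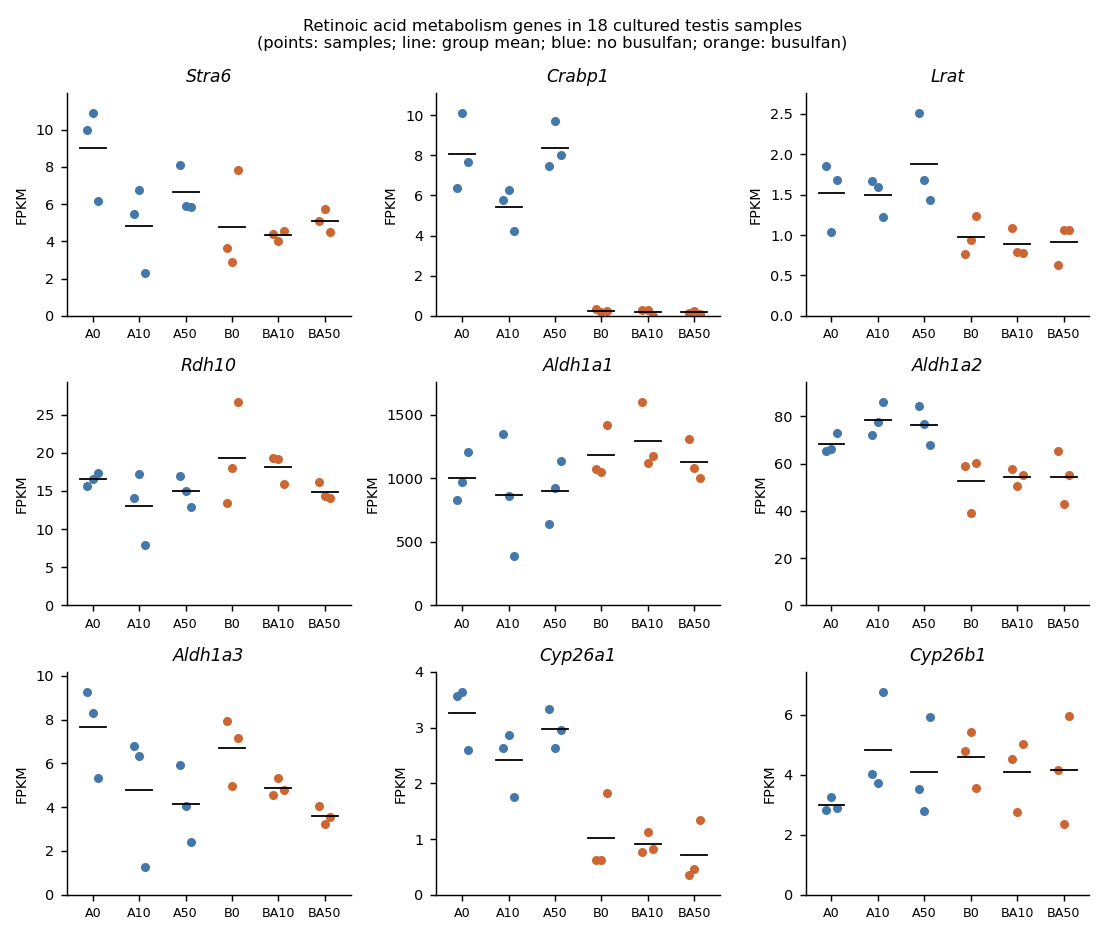
FPKM of each of the 9 genes (vertical axes, linear from 0) in the 6 groups, with a point per sample and a line at the group mean; blue is without and orange with busulfan. Crabp1 is at 4.20 to 10.1 FPKM in every blue point and at most 0.34 in every orange one, while the points of Aldh1a3, Rdh10 and Cyp26b1 overlap.

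Each gene was tested with limma on log2(FPKM + 1), which makes changes of low genes look smaller than they are, in 1 fit of all 18 samples and 15790 genes with 1 FPKM or more in 3 or more samples. The threshold for a call was a Benjamini-Hochberg adjusted p of at most 0.05 over all genes tested. All 9 genes entered the test. Crabp1 entered only through the samples without busulfan, since every busulfan sample was under 1 FPKM, so a difference in it was built into its entry. Of the 9, 2 were called between B0 and A0, beside 13.8% of all genes tested (12.3% lower). Over the 3 AOS levels together, 4 of 9 were called with busulfan, all lower, beside 38.1% of all genes (24.8% lower). Under the limits in the supplementary methods, an FDR of at most 0.001 with a log2 change of at least 1, 1 gene of the 9 was called in B0 (2.54% of all genes) and 2 over the 3 levels (3.61%). The counts of 2 and 4 among so few genes were not tested against these shares and are not a result about the set. The median log2 change of the 9 was -0.34 in B0 against A0 and -0.40 over the 3 levels, where the medians of all genes were -0.04 and 0.012.

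**Figure D2:**
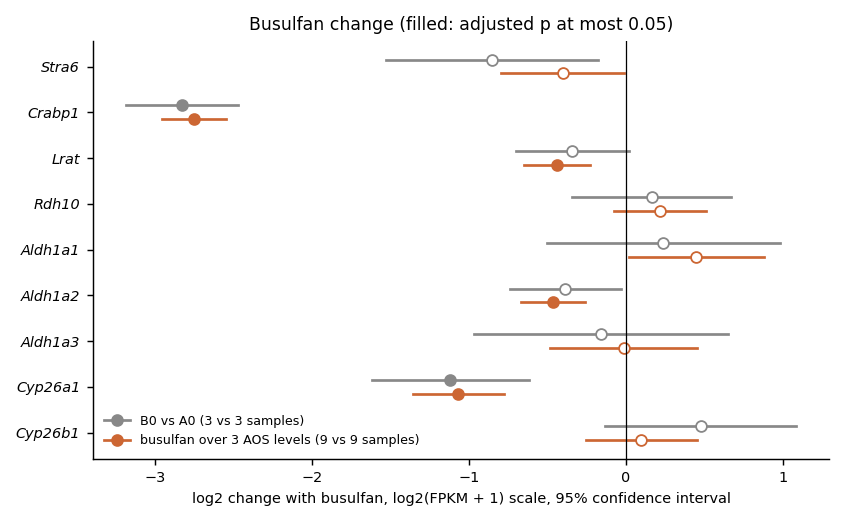
Log2 change with busulfan (horizontal axis, log2(FPKM + 1) scale) of the 9 genes, with 95% confidence intervals from limma; gray is B0 against A0 and orange is the change over 3 AOS levels. Filled points have an adjusted p of at most 0.05, which holds for Crabp1 and Cyp26a1 in both and for Lrat and Aldh1a2 over the 3 levels.

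Stra6, the retinol receptor, was at 10.01, 10.90 and 6.17 FPKM in A0 and at 3.62, 2.90 and 7.82 in B0. In the AOS groups without busulfan it was at 5.48, 6.77 and 2.30 (A10) and at 8.11, 5.92 and 5.87 (A50), and with busulfan at 4.42, 4.0 and 4.58 (BA10) and at 5.10, 5.75 and 4.50 (BA50). B0 replicate 3 lay above the lowest A0 sample, so A0 and B0 overlapped. Every busulfan sample lay within the range of the 9 samples without busulfan, 2.30 to 10.90 FPKM. The log2 change was -0.85 (SE 0.32) in B0 against A0, with a limma adjusted p of 0.0943, and -0.40 (SE 0.18) over the 3 levels, with a limma adjusted p of 0.0947. The call turned on single samples. Without A10 replicate 3 the limma adjusted p was 0.0352 in B0 against A0 and 0.0154 over the 3 levels, and without B0 replicate 3 it was 0.018 and 0.0219.

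Lrat, the storage enzyme, was low throughout. It was at 1.85, 1.04 and 1.68 FPKM in A0, 1.67, 1.59 and 1.22 in A10, and 2.51, 1.68 and 1.43 in A50. With busulfan it was at 0.77, 0.94 and 1.23 in B0, 1.09, 0.79 and 0.78 in BA10, and 0.63, 1.06 and 1.06 in BA50. Of the 9 busulfan samples, 5 lay below the lowest sample without busulfan. Over the 3 levels Lrat fell by 0.44 on the log2 scale (SE 0.097, limma adjusted p = 0.00233), and its mean was 1.76 times higher without busulfan. An exact permutation test over samples within each AOS level gave p = 0.00075, where the smallest p that 8000 arrangements can give is 0.00025. With a pseudocount of 0.1 in place of 1 the log2 change was -0.74. B0 against A0 alone gave -0.34 (SE 0.17, limma adjusted p = 0.231).

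Rdh10, which makes retinal from retinol, was at 15.62, 16.60 and 17.40 FPKM in A0 and at 13.42, 17.95 and 26.60 in B0. Its 9 samples without busulfan ran from 7.90 to 17.40 FPKM with a median of 15.6, and those with busulfan from 13.42 to 26.60 with a median of 16.1. In single groups it was at 14.10, 17.26 and 7.90 (A10), 16.98, 15.01 and 12.91 (A50), 19.30, 19.23 and 15.89 (BA10) and 16.11, 14.37 and 14.04 (BA50). The groups overlapped, and the log2 change over the 3 levels was 0.22 (SE 0.14, limma adjusted p = 0.222).

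Aldh1a1 carried most of the retinal dehydrogenase RNA. It was at 830.07, 970.36 and 1207.51 FPKM in A0, 1349.88, 860.63 and 384.25 in A10, and 642.45, 922.43 and 1132.56 in A50. With busulfan it was at 1073.66, 1048.40 and 1418.95 in B0, 1595.56, 1116.13 and 1173.04 in BA10, and 1310.23, 1083.56 and 998.23 in BA50. The lowest busulfan sample lay above 6 of the 9 samples without busulfan, but the ranges overlapped. The mean was 1.30 times higher with busulfan (1202 against 922.2 FPKM), a log2 change of 0.45 (SE 0.20) that missed the threshold with a limma adjusted p of 0.0943. The exact permutation p was 0.0328, unadjusted for the number of genes. Without A10 replicate 1 the change was 0.58 with a limma adjusted p of 0.0153, and without A10 replicate 3 it was 0.28 with a limma adjusted p of 0.135. Summed Sertoli cell markers ran from 1082 to 4285 FPKM without and from 2863 to 5177 FPKM with busulfan. Most of that was Clu, at 882.15 to 3713.78 FPKM without and 2434.89 to 4513.44 with busulfan. Of the 11 markers tested, 1 was called higher, beside 38.1% of all genes called either way. The part of these markers in the Aldh1a1 values was not tested. The neighbouring copy Aldh1a7 was listed at 0.914% to 1.66% of Aldh1a1, and both levels are uncertain because reads may be split between them.

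Aldh1a2 was the only retinal dehydrogenase called in the fit of all 18 samples. It was at 65.49, 66.15 and 72.82 FPKM in A0, 72.19, 77.47 and 85.89 in A10, and 84.56, 76.72 and 67.82 in A50. With busulfan it was at 59.05, 39.28 and 60.08 in B0, 57.89, 50.32 and 55.29 in BA10, and 65.36, 42.76 and 55.02 in BA50. Every busulfan sample lay below every sample without busulfan, though by a narrow margin between 65.36 and 65.49 FPKM. Over the 3 levels Aldh1a2 fell by 0.47 (log2, SE 0.095, limma adjusted p = 0.00125), the means were 74.4 and 53.9 FPKM, and the exact permutation p of 0.00025 was the smallest these arrangements can give. B0 against A0 alone gave -0.39 (SE 0.17) with a limma adjusted p of 0.156. The 9 busulfan samples and the 9 others did not overlap in 10.2% of all genes tested, with busulfan below in 9.66%. Summed spermatocyte markers were 915.7 to 2197 FPKM without and 458.6 to 1258 with busulfan. Most of that was Ldhc, at 643.69 to 1827.77 FPKM without and 411.71 to 1154.65 with busulfan. Of the 12 markers 11 were called lower, beside 24.8% of all genes, and 1 of the 11 (Dmc1) entered only through samples without busulfan. The part of these markers in the Aldh1a2 values was not tested.

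Aldh1a3, the least abundant of the 3 dehydrogenases, was at 9.26, 8.31 and 5.35 FPKM in A0 and at 7.94, 4.98 and 7.14 in B0. Over all samples without busulfan it ran from 1.27 to 9.26 FPKM, and with busulfan from 3.23 to 7.94, so the groups overlapped. The log2 change over the 3 levels was -0.016 (SE 0.22, limma adjusted p = 0.961), and its sign flipped with the scaling, to 0.077 after quantile normalization.

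Because Aldh1a1 is so abundant, the summed FPKM of the 3 dehydrogenases followed it. Its share of the sum was 81.5% to 94.5% without busulfan (median 91.95%) and 94.1% to 96.2% with busulfan (median 95.3%). The ranges overlapped only between 94.1% and 94.5%, and the lowest share was that of A10 replicate 3.

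Crabp1 changed most. It was at 6.36, 10.10 and 7.67 FPKM in A0, 5.77, 6.27 and 4.20 in A10, and 7.45, 9.70 and 7.99 in A50. With busulfan it was at 0.34, 0.20 and 0.23 in B0, 0.29, 0.29 and 0.00 in BA10, and 0.16, 0.24 and 0.10 in BA50. No busulfan sample came near a sample without it. The mean of the 9 was 35.4 times higher without busulfan (7.28 against 0.206 FPKM), and A0 was 31.3 times B0. These ratios rest on low busulfan values, at most 0.34 FPKM. Crabp1 fell by 2.83 (log2, SE 0.17, limma adjusted p = 2.85e-08) in B0 against A0 and by 2.75 (SE 0.096, limma adjusted p = 1.52e-11) over the 3 levels. With a pseudocount of 0.1 the log2 changes were -4.51 and -4.66. The exact permutation p over 9 and 9 samples was 0.00025, the smallest possible here. Crabp1 entered the test only through the samples without busulfan, so a difference was built in and these p-values are no separate support.

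The markers of spermatogonia moved in the same contrast. The sum of the whole list was 102.8 to 191.8 FPKM without and 57.4 to 112.5 FPKM with busulfan. Much of it was Uchl1, at 46.07 to 100.08 FPKM without and 37.24 to 99.98 with busulfan. Of the 10 markers tested, 7 were called lower, beside 24.8% of all genes. Of these 7, 5 (Stra8, Dmrt1, Sohlh1, Sohlh2 and Sall4) had 1 FPKM in 3 or more samples only without busulfan, so a lower value was built into their entry, and this did not hold for Id4 and Kit. Dmrt1, a factor of spermatogonia, went from 6.06 to 13.6 FPKM down to 0.47 to 1.03, and Sohlh1, which acts in differentiating spermatogonia, from 2.67 to 5.11 down to 0 to 0.19. Gfra1, the receptor of undifferentiated spermatogonia, ran from 1.68 to 2.76 without and from 0.74 to 3.23 FPKM with busulfan, and overlapped. The part of these markers in the Crabp1 values was not tested.

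Cyp26a1, the hydroxylase gene with the DR5 pair shown above, was at 3.57, 3.64 and 2.60 FPKM in A0, 2.63, 2.87 and 1.76 in A10, and 3.34, 2.63 and 2.95 in A50. With busulfan it was at 0.63, 0.62 and 1.82 in B0, 0.77, 1.12 and 0.83 in BA10, and 0.35, 0.46 and 1.34 in BA50. Of the 9 busulfan samples, 8 lay below the lowest sample without busulfan, and the exception was B0 replicate 3. The gene fell by 1.12 (log2, SE 0.23, limma adjusted p = 0.00414) in B0 against A0, where A0 was 3.20 times B0. Over the 3 levels it fell by 1.07 (SE 0.14, limma adjusted p = 1.52e-05, exact permutation p = 0.00025). With a pseudocount of 0.1 these changes were -1.73 and -1.71.

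Cyp26b1, the other hydroxylase, did not pass the test in any comparison. It was at 2.82, 3.25 and 2.89 FPKM in A0 and at 4.79, 5.43 and 3.55 in B0, without overlap. The log2 change of 0.47 (SE 0.28) between them had a limma adjusted p of 0.347, and A0 and B0 did not overlap in 33.2% of all genes. Over the 3 levels the change was 0.10 (SE 0.16, limma adjusted p = 0.662), and the ranges of 2.78 to 6.76 FPKM without and 2.36 to 5.97 with busulfan overlapped. Its sign flipped without the groups B0 and A0. Summed myoid cell markers ran from 203.6 to 510.6 FPKM without and 194.8 to 459.2 with busulfan. None of the 6 was called over the 3 levels, beside 38.1% of all genes.

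Cyp26a1 made up 20.7% to 55.9% of the summed FPKM of Cyp26a1 and Cyp26b1 without busulfan (median 47.4%) and 7.76% to 33.9% with busulfan (median 14.6%). In A0 the share was 47.4% to 55.9%, and in B0 10.2% to 33.9%. These shares are descriptions and were not tested.

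**Figure D3:**
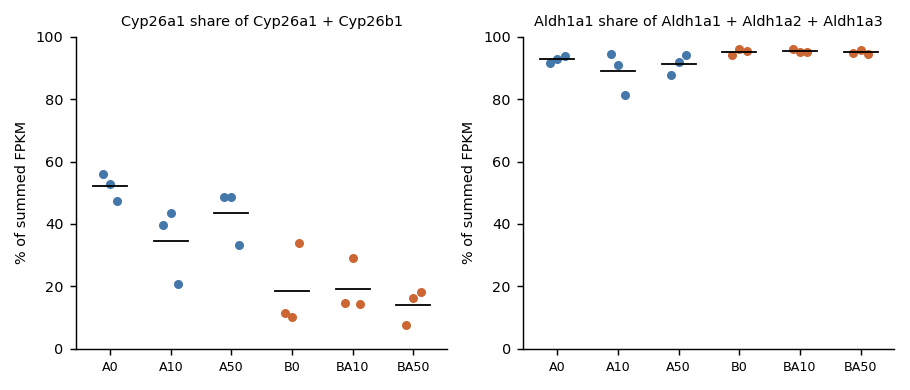
Left, Cyp26a1 as a percentage of the summed FPKM of Cyp26a1 and Cyp26b1, and right, Aldh1a1 as a percentage of the summed FPKM of the 3 Aldh1a genes (vertical axes, 0 to 100%), with a point per sample and a line at the group mean. On the left the median is 47.4% without busulfan (blue) and 14.6% with it (orange), and on the right every point is at or above 81.5%.

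Set beside each other at the 3 AOS levels, the busulfan differences had the same sign in each of the 4 called genes. These genes were called on the mean of the same 3 differences, so the shared sign is no separate support. At 0, 10 and 50 µg per mL the log2 differences of Crabp1 were -2.83, -2.42 and -3.00, and those of Cyp26a1 -1.12, -0.83 and -1.25. For Aldh1a2 they were -0.39, -0.52 and -0.50, and for Lrat -0.34, -0.40 and -0.57. These sets of 3 samples against 3 cannot reach an exact p below 0.1 on their own.

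The question of the AOS arms was whether the oligosaccharide changed these genes in testes with or without prior busulfan. None of the 9 was called by limma in A10 or A50 against A0, or in BA10 or BA50 against B0. The same limma test called 0.0%, 0.0%, 0.0253% and 0.095% of all genes in these comparisons. At an unadjusted p under 0.05, limma found 2 of the 9 in A10 and 0 in the other 3 comparisons, beside 15.2%, 15.6%, 5.05% and 24.3% of all genes. The 4 comparisons share their control samples in pairs.

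Those 2 were Crabp1 and Stra6. The 3 A10 samples of Crabp1 (4.20 to 6.27 FPKM) lay below the 3 A0 samples (6.36 to 10.10). The log2 change was -0.49 (SE 0.17, limma adjusted p = 0.322), the exact permutation p of 0.1 was the smallest possible with 3 against 3, and 20.1% of all genes did not overlap in that comparison. For Stra6 the log2 difference was -0.83 (SE 0.32, limma adjusted p = 0.322), with overlap. Without A10 replicate 3 these values were -0.35 and -0.46.

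Aldh1a3 had negative values in all 4 comparisons. Against A0 the log2 difference was -0.74 for A10 and -0.78 for A50, and against B0 it was -0.37 for BA10 and -0.72 for BA50, each with an SE of 0.38. Their limma adjusted p-values were 0.342, 0.328, 0.775 and 0.250. The samples were at 6.78, 6.35 and 1.27 FPKM in A10, 5.94, 4.07 and 2.40 in A50, 4.54, 5.33 and 4.78 in BA10, and 4.03, 3.23 and 3.55 in BA50. Only BA50 lay wholly below its control, with 24.6% of all genes not overlapping there. Without A10 replicate 3, the A10 value was -0.16.

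Cyp26b1 was at 4.02, 3.73 and 6.76 FPKM in A10, all above A0, a log2 change of 0.51 (SE 0.28, limma adjusted p = 0.359) that was 0.29 without A10 replicate 3. It was at 3.53, 2.78 and 5.92 FPKM in A50, 4.51, 2.75 and 5.01 in BA10 and 4.16, 2.36 and 5.97 in BA50, and overlapped with the control in each. Rdh10 and Aldh1a1 in A10 overlapped with A0. Their limma adjusted p-values were 0.396 and 0.553. Crabp1 and Cyp26a1, the genes lowered most in the busulfan samples, had log2 differences of -0.083 and -0.039 in BA10 and of -0.11 and -0.23 in BA50. The lowest of these 4 limma adjusted p-values was 0.545 and the highest 0.968. The 95% intervals of the BA50 values ran from -0.46 to 0.25 for Crabp1 and from -0.73 to 0.27 for Cyp26a1.

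**Figure D4:**
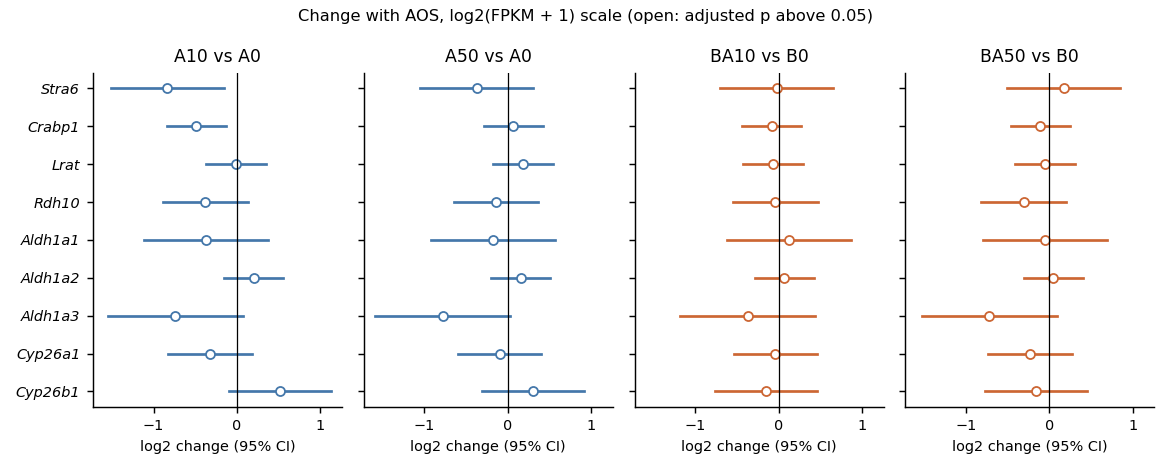
Log2 change (horizontal axes, log2(FPKM + 1) scale) of the 9 genes in the 4 comparisons of AOS with its control, with 95% confidence intervals from limma; blue is without and orange with busulfan. All points are open, with adjusted p above 0.05, and the intervals of Stra6 and Crabp1 in A10 are the only 2 that leave out 0.

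The AOS change with busulfan was also set against the AOS change without it. None of the 9 differed by limma at 10 or at 50 µg per mL, where 0.0% of all genes did at either. At an unadjusted p under 0.05, limma again found 0 of the 9, beside 3.97% and 6.28% of all genes. The largest difference was that of Stra6 at 10 µg per mL, 0.81 (SE 0.45) with a 95% interval of -0.15 to 1.76 and a limma adjusted p of 0.910.

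Other genes of the retinoid pathway were taken as 41 genes in 5 lists, all in the table, of which 30 were tested. With busulfan over the 3 levels 4 of the 30 were called higher and 6 lower, and in B0 against A0 none higher and 4 lower. Beside the 38.1% and 13.8% of all genes called in these comparisons, 10 and 4 of 30 are near the background and are no result about the pathway. Their medians were 0.090 and 0.045 on the log2 scale. No gene of the 30 was called in an AOS comparison. The list of further hydroxylases held Cyp26c1 alone, which was too low to be tested.

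Among carriers and storage genes 1 of 6 was called, beside 38.1% of all genes, so the count is no result about the list. It was Dgat1, an acyltransferase that can esterify retinol. It was at 16.37 to 22.15 FPKM without and 11.38 to 16.73 with busulfan, a log2 change of -0.52 (limma adjusted p = 1.92e-05).

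Of 11 oxidoreductases 3 were called higher and 1 lower, again near the 38.1% of all genes called. Rdh11, a retinal reductase, was at 45.05 to 84.73 FPKM without and 29.93 to 51.96 with busulfan, and fell by 0.70 (log2, limma adjusted p = 4.55e-06). Adh7 (0.65), Adh5 (0.27) and Rdh5 (0.23), which are alcohol and retinol dehydrogenases, rose, with limma adjusted p-values of 0.00864, 0.0304 and 0.0152. Adh7 was highest in B0, at 4.83, 9.66 and 3.28 FPKM, the group with the markers of fat and duct epithelium; their part in it was not tested.

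The 5 receptor genes tested were not called in any comparison. With busulfan over the 3 levels the log2 differences were 0.063 for Rara, 0.079 for Rarg and 0.21 for Rarb, with limma adjusted p-values of 0.543, 0.643 and 0.0580. Rarb was low, at 0.50 to 0.87 FPKM without and 0.59 to 1.32 with busulfan, and the groups overlapped. Only busulfan samples reached 1 FPKM, so it entered the test through the group where it was higher.

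Of 8 genes known to respond to retinoic acid, 4 were called lower and 1 higher, beside 38.1% of all genes called either way. Stra8, Kit and Sall4 are also in the list of spermatogonium markers and Rec8 in that of spermatocytes. The counts of these lists are therefore not separate. Stra8, which acts at the entry into meiosis, was at 14.16 to 35.41 FPKM without and 0 to 0.12 with busulfan. It fell by 4.58 (log2, SE 0.12, limma adjusted p = 1.06e-12). Sall4, a factor of spermatogonia, fell by 1.30 (limma adjusted p = 2.94e-09) and Meioc, needed for meiotic prophase, by 2.14 (limma adjusted p = 1.10e-08). Sall4 was at 0.93 to 2.33 FPKM without and 0 to 0.02 with busulfan, so the added 1 FPKM shrinks its change. Meioc was at 16.9 to 31.65 FPKM without and 3.07 to 8.51 with busulfan. Tgm2, a transglutaminase, rose by 0.40 (limma adjusted p = 0.0124). Kit, the receptor of differentiating spermatogonia, was the remaining one called, named after its values were seen, and fell by 0.58 (limma adjusted p = 0.0124). Rec8 (0.14), Nrip1 (0.18) and Rarres1 (0.52) had positive log2 differences and were not called. Their limma adjusted p-values were 0.510, 0.0971 and 0.383, and they too were named after their values were seen. As with Crabp1, Stra8 and Sall4 entered the test through the samples without busulfan.

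**Figure D5:**
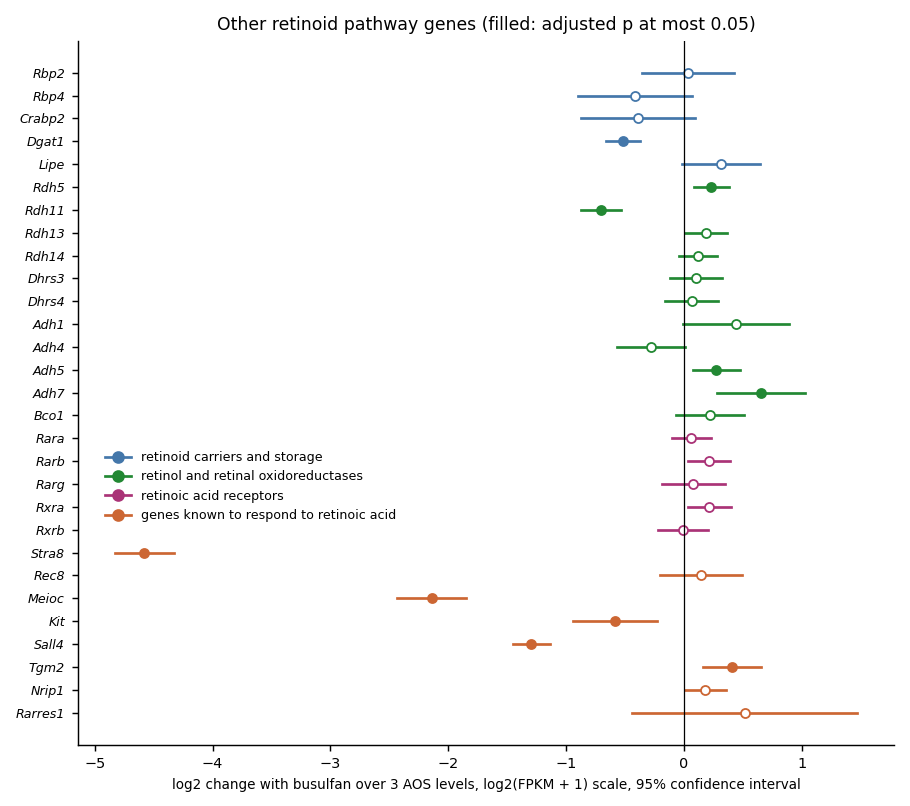
Log2 change with busulfan over 3 AOS levels (horizontal axis, log2(FPKM + 1) scale, 95% confidence intervals from limma) of 29 of the 30 other retinoid pathway genes that were tested, colored by list. Filled points have an adjusted p of at most 0.05; Stra8 at -4.58, Meioc at -2.14 and Sall4 at -1.30 lie farthest from 0, and the 5 receptor genes are open.

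The genes whose log2 values tracked each of the 9 most closely over the 18 samples were listed as a description. These points share groups and libraries, so a correlation over them largely repeats the busulfan contrast or a sample that stands apart. For Crabp1 they were Stra8, Tex19.1 and Mageb4, each at a Pearson r of 0.995, and all are genes of germ cells. Cyp26a1 tracked Sema5b (0.951), Caprin2 (0.936) and Parp1 (0.935). Aldh1a2 tracked Rpn1 (0.91), Arhgap20 (0.904) and Egflam (0.904), and Aldh1a1 tracked Cers6 (0.956), Glul (0.943) and Serinc3 (0.94). Aldh1a3 was closest to Prickle1 (0.931), Igtp (0.928) and Sfrp1 (0.912), and Rdh10 to Zfp442 (0.936), Ormdl1 (0.918) and Manea (0.917). For Cyp26b1 the closest were Mpp2 (0.939), Tubb4a (0.932) and Bsg (0.898), for Stra6 Zfp142 (0.854), Prr5 (0.849) and Ap1b1 (0.846), and for Lrat Ecd (0.89), Wdr19 (0.888) and Apoc2 (0.882).

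The marker lists of the other cell types were also counted. With busulfan over the 3 levels 0 of 12 spermatid, 0 of 6 myoid and 0 of 7 macrophage markers were called by limma, while 2 of 8 Leydig, 3 of 6 endothelial and 6 of 6 fat cell markers were called higher, beside 38.1% of all genes called either way. Of the 6 fat cell markers 5 entered the test only through busulfan samples. Of the 8 duct epithelium markers 4 were higher and 1 lower, and of 2 epididymis markers tested 1 was lower. Krt7, 1 of those higher, entered the test only through busulfan samples, and the epididymis marker Rnase10 only through samples without busulfan. Their directions were therefore built into their entry. Without the groups A0 and B0, fat cell markers still summed to 5.82 to 16.8 FPKM in BA10 and 4.4 to 11.9 in BA50. They reached at most 6.58 in A10 and 4.69 in A50. Duct epithelium markers summed to 55.0 to 68.7 FPKM in BA10 and 42.7 to 71.2 in BA50. These overlapped with 55.7 to 62.85 in A10 and 58.5 to 70.5 in A50. In the fit without A0 and B0, chosen after seeing the data, the share of all genes called was not taken. Crabp1 was then at -2.71, Cyp26a1 at -1.04, Aldh1a2 at -0.51 and Lrat at -0.49 on the log2 scale. They were picked by their calls over the 3 levels, so these values are no separate support. The part of the fat and duct markers in them was not tested.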

How the data were processed

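RNA of 18 cultured testis samples was analysed. The authors deposited 1 table of FPKM values with 2 decimals. The labels' processing notes name HISAT, Bowtie2, RSEM and GRCm38.p5, whereas the supplementary methods describe SOAPaligner and RPKM, so the aligner behind the values is uncertain. The paper gives the AOS concentrations as in the treatment labels, per mL of medium, while the series' design text gives a dose per body weight. Reads per sample are unknown: of 553 ratios of low values in 69 genes, 21.3% lay within 0.1 of a whole number, where chance gives 20%. No interval was therefore taken from depth, and precision was judged from 3 samples per group.

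Of 22657 rows, 1846 carried no NCBI number, and 155 numbers found no symbol in RefSeq (GRCm38.p6). Tests used limma 3.58.1 in R 4.3.3 (lmFit, eBayes with trend) of the log2(FPKM + 1) values in a model of 6 group means, 12 residual and 2.56 prior degrees of freedom, and Benjamini-Hochberg adjustment over 15790 genes. The supplementary methods' limits (FDR of 0.001 and log2 change of 1) belong to a test on counts and served as an alternative. Single genes also had exact two-sided permutation tests over 20 divisions, or over 8000 arrangements within AOS levels. The limma step was tested on simulated data. Figures were drawn with matplotlib 3.10.9, and other steps ran in Python 3.11.15 (SciPy 1.17.1, NumPy 2.4.6, pandas 2.3.3).

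The 9 genes, the pathway lists and the cell type lists were chosen with earlier results of these data known. Named are the 9 genes, in each pathway list up to 4 called genes with the smallest adjusted p, Stra8 and the 3 Rar genes, and the 3 genes closest to each of the 9 by Pearson r. Kit, Rec8, Nrip1 and Rarres1 were named later, to give the whole list of response genes. The replicate numbers were checked for pairing across all tested genes: deviations of same-numbered samples correlated at 0.56, 0.42 and 0.14 in B0 and BA50, all over 0.1, and at -0.43 to 0.34 in the other pairs of groups, where they were not all over 0.1. The values of 1 pathway gene are not reported here. A block for the number was fitted as an alternative. Pseudocount, filter, scaling, variance model and the removal of each sample were the others. Single-cell, metabolite and microbiota data were not analysed here.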

Additional observations from a re-analysis of the deposited data

Results flagged for a closer look

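Among the 9 samples without busulfan, a single sample stood apart by Dixon's test, in which the gap to the nearest sample divided by the range exceeds the 95% critical value for 9 samples, in 3 of 18 sets tested (each of the 9 genes, with and without busulfan). About 1 in 20 such sets does so by chance. In each the sample was A10 replicate 3 at the low end: Rdh10 at 7.90 FPKM (gap over range 0.615), Cyp26a1 at 1.76 FPKM (0.512) and Stra6 at 2.30 FPKM (0.526). The same sample was below all others in Aldh1a1 (384.25 FPKM) and Aldh1a3 (1.27 FPKM) and above all others in Aldh1a2 (85.89 FPKM) and Cyp26b1 (6.76 FPKM), where the gap stayed under that limit. Its summed Sertoli cell markers (1082 FPKM) were the lowest and its summed spermatocyte markers (2197 FPKM) and myoid cell markers (510.6 FPKM) the highest of the samples without busulfan. Their part in its values was not tested.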

How the results depend on the processing

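The calls of Crabp1, Cyp26a1, Aldh1a2 and Lrat over the 3 AOS levels and of Crabp1 and Cyp26a1 in B0 against A0 held in every fit that left out a single sample. With only genes averaging at least 5 FPKM, 5 of the 9 were left, and Crabp1, Cyp26a1, Cyp26b1 and Lrat were not tested. Limma then called 0 in B0 against A0 and 1 over the 3 levels. Under the limits of the supplementary methods, with all 9 tested, it called 1 and 2. Equal medians gave Aldh1a1 a called busulfan change of 0.52 (limma adjusted p = 0.0371). Scaling moved the median of all genes in B0 against A0 from -0.04 to 0.049 (quantile) or 0.07 (equal medians).

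The replicate block called 2 genes in B0 against A0 and 4 over the 3 levels, and 0 in each AOS comparison, the same numbers as without the block. With B0 and BA50 alone, whose same-numbered samples correlated at 0.56, 0.42 and 0.14 with no pairing stated in the labels, the block called 0. That last fit and the one without B0 and A0 were chosen after seeing the data.

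Signs flipped in changes that were not called. For busulfan over the 3 levels, Aldh1a3 was at 0.017 with a pseudocount of 0.1, 0.077 after quantile normalization, 0.063 with equal medians and 0.056 without B0 and A0, and Cyp26b1 at -0.090 without B0 and A0. Lrat in A10 was at 0.068 (quantile) and 0.069 (equal medians). After quantile normalization Cyp26a1 in BA10 was at 0.0022, and in BA50 Aldh1a2 was at -0.055 and Lrat at 0.0090.

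Leaving out 1 sample at a time flipped 50 of 1296 log2 changes, all in comparisons where the gene was not called. The range without each sample in turn crossed 0 for Aldh1a3 (-0.37 to 0.011) and Rdh10 (-0.084 to 0.38) in B0 against A0, and for Aldh1a3 (-0.21 to 0.088) over the 3 levels. In A10 it crossed 0 for Lrat (-0.15 to 0.088) and Aldh1a1 (-0.78 to 0.12), and in A50 for Crabp1 (-0.072 to 0.22) and Aldh1a1 (-0.36 to 0.045). In BA10 this held for Aldh1a2 (-0.13 to 0.17), Rdh10 (-0.26 to 0.21), Cyp26a1 (-0.17 to 0.23), Stra6 (-0.26 to 0.33), Lrat (-0.14 to 0.022), Aldh1a1 (-0.031 to 0.27), Cyp26b1 (-0.29 to 0.057) and Crabp1 (-0.14 to 0.039). In BA50 it held for Aldh1a2 (-0.15 to 0.21), Stra6 (-0.067 to 0.52), Aldh1a1 (-0.17 to 0.082), Cyp26a1 (-0.48 to 0.035), Lrat (-0.13 to 0.064) and Cyp26b1 (-0.41 to 0.12). For the AOS change with minus without busulfan it held at 10 µg per mL for Lrat (-0.16 to 0.086) and Aldh1a3 (-0.20 to 0.68), and at 50 µg per mL for Aldh1a3 (-0.21 to 0.30), Aldh1a1 (-0.10 to 0.31), Rdh10 (-0.39 to 0.078), Cyp26a1 (-0.38 to 0.13) and Aldh1a2 (-0.31 to 0.048). The cause of these flips was not tested.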
